A study of Mus musculus with 1 sample.

Results

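The 359 cells described here, of 7645 filtered bone marrow cells (4.70%, 95% interval 4.23 to 5.19), were chosen by their measured UMIs of genes that mark the pre-megakaryocyte-erythroid progenitor. A UMI is a unique molecular identifier, so that copies of 1 captured RNA molecule count once. A cell was taken when at least 2 of the 4 marker genes St8sia6, F2r, Slc22a3 and Apoe had a UMI. It also had to hold fewer than 2 of the stem cell genes Procr, Hlf and Mecom, under 5 UMIs of the erythroid gene Car1, under 3 UMIs of the platelet gene Pf4, and no UMI of Flt3, Prss34 or Treml1. The values that chose the cells are given as a description, with no test. Because the expression profiles below go against the label for a large share of these cells, they are called marker-pair cells and not by a cell type name.

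They come from a single-cell RNA-seq library of lineage-negative, Kit-positive cells from femora and tibiae of control C57BL/6 mice. The mice carried Brd9 fl/fl alleles, per the study's methods without the Cre that deletes Brd9, and received 3 injections of 20 mg/kg pIpC, a double-stranded RNA analogue that induces interferon. The injections began 4 weeks after birth in the series text and 4 weeks after transplantation in the labels, and the cells were prepared 8 weeks later. The sample's labels name a CD45.2(+) donor and a CD45.1(+) CD45.2(-) recipient, whereas the series text speaks of primary mice, and which applies was not settled. With only 1 library there are no replicates, so no test was run, and the intervals are exact 95% intervals for counting error only (Poisson for levels, conditional binomial for ratios, Clopper-Pearson for shares). The other filtered cells number 7286, and the study's Brd9-deleted cells are not analysed here.

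The pre-megakaryocyte-erythroid progenitor lies between the multipotent progenitors and the cells committed to red cells or to platelets. GATA2 acts early in this branch, GATA1 and its cofactor FOG1 (Zfpm1) drive both fates, KLF1 favours the erythroid fate and FLI1 the megakaryocytic fate. In sorting, such cells are Kit-positive and CD150-positive (Slamf1), with low CD41 (Itga2b), endoglin (Eng) and Fc gamma receptor (Fcgr3). Basophil and mast cell precursors also depend on GATA2 and share part of this program.

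Levels are summed UMIs of a group per 1000000 of all its UMIs (CPM). The marker-pair cells held 5209546 UMIs, with 2073 as the lowest, 12583 as the median and 43632 as the highest UMI count of a cell, and a median of 3613 genes and 3.48% mitochondrial UMIs. The other filtered cells had a median of 18983 UMIs. Of the marker-pair cells 8 (2.23%, 0.967 to 4.34) were doublet calls, against 257 (3.53%, 3.12 to 3.98) of the others, and all were kept. Shallow cells were over-represented among the members. Of 2459 cells within all limits other than the marker number, split by depth into 4 bins of equal size, the shallowest bin had 34.1% members (30.4 to 38.0), and the following bins had 12.4%, 4.88% and 6.99%. The part of cell size or of free RNA in this was not tested.

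The 4 markers are unrelated in function and lie on different chromosomes (GRCm38, GENCODE M21). St8sia6, an alpha-2,8-sialyltransferase that caps sugar chains with sialic acid, is at chr2:13651021-13794064. F2r, the thrombin receptor PAR1, is at chr13:95601803-95618487. Slc22a3, an organic cation transporter, is at chr17:12418960-12507704, and Apoe, the lipid carrier apolipoprotein E, is at chr7:19696109-19699188. All are protein-coding genes on the minus strand, and none overlaps another gene on that strand.

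Apoe carried most of the selection. It had a UMI in 355 of the 359 cells (98.9%), with 0 as the lowest, 12 as the median and 76 as the highest UMI count. Slc22a3 was detected in 293 cells (81.6%, median 1, highest 7), F2r in 164 (45.7%, median 0, highest 8) and St8sia6 in 94 (26.2%, median 0, highest 6). The commonest combination was Slc22a3 with Apoe alone, in 146 cells (40.7%), followed by F2r, Slc22a3 and Apoe in 74 and F2r with Apoe in 41. All 4 markers were found in 35 cells (9.75%), and only 4 cells were taken without Apoe, all of them by F2r with Slc22a3.

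**Figure D1:**
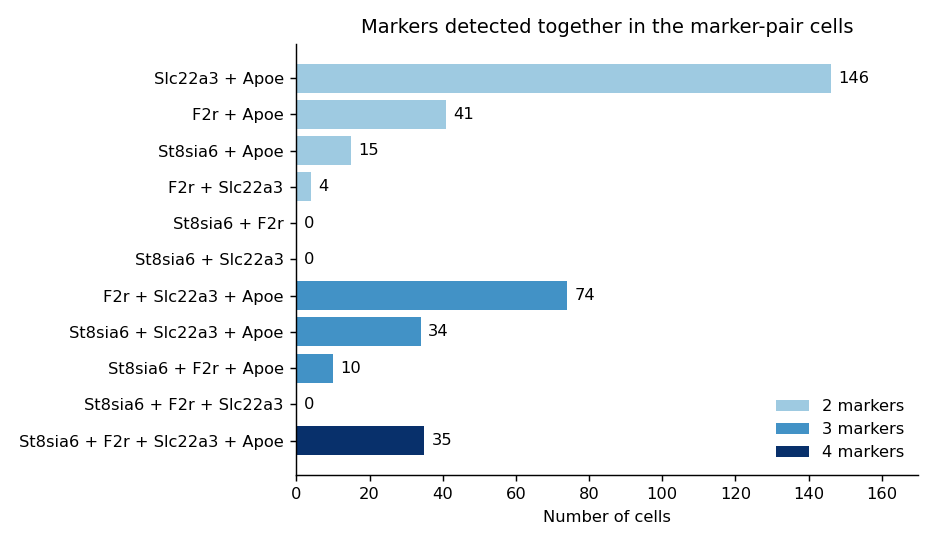
Number of marker-pair cells with each combination of the 4 marker genes, for cells with 2, 3 or 4 markers. The pair of Slc22a3 and Apoe has the longest bar (146 cells), and the combinations of at least 2 markers without Apoe hold 4 cells in all.

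Apoe was also the marker most often detected in cells of the neutrophil lineage. As a reference, 590 cells within the same limits with 3 or more UMIs of Cebpe, a neutrophil lineage transcription factor, were read out whatever their markers (median 21068.5 UMIs). Apoe had a UMI in 42.0% of them (38.0 to 46.1), against 7.12% for Slc22a3, 1.19% for St8sia6 and 0.847% for F2r. Of these Cebpe-positive cells 40 (6.78%, 4.89 to 9.12) met the rule and are members. The highest count in 1 of the 590 cells was 73 UMIs for Apoe and 7 for Slc22a3. The parts of free RNA and of expression in these shares were not tested. In cells thinned to 5000 UMIs, which left out 6 members, Apoe was detected in 88.1% of members and 16.7% of Cebpe-positive cells, and Slc22a3 in 43.1% and 1.53%.

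At the limits of the rule the numbers were as follows. There were 206 members with exactly 2 markers, and 718 cells within the other limits with exactly 1. Car1 was at 4 UMIs in 14 members and at 5 in 12 cells that met the rest of the rule. Pf4 was at 2 in 17 members and at 3 in 14 such cells. Exactly 1 stem gene was detected in 160 members, and 123 cells were kept out by exactly 2.

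Members with more markers had higher levels of erythroid-megakaryocytic regulators and lower levels of neutrophil genes. Gata1 stood at 22.3 CPM in members with 2 markers, 61.7 CPM with 3 and 107 CPM with 4, and the 3 intervals did not overlap. Gata2 stood at 200 CPM, 351 CPM and 552 CPM in the same order, Zfpm1 at 83.3 CPM, 178 CPM and 222 CPM, and Klf1 at 14.0 CPM, 47.4 CPM and 74.1 CPM, with overlapping intervals for 3 and 4 markers in the last 2 genes. Mpo, the myeloperoxidase of neutrophil granules, went the other way, at 2982 CPM, 933 CPM and 79.2 CPM, and Cd34, a progenitor surface protein, at 206 CPM, 146 CPM and 84.3 CPM. Itga2b (101 CPM, 155 CPM and 138 CPM) and the mast cell protease gene Cpa3 (478 CPM, 394 CPM and 386 CPM) had no such order between 3 and 4 markers. Median depth was 13402, 12361 and 10220 UMIs, so the cells with more markers were not the deeper ones.

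**Figure D2:**
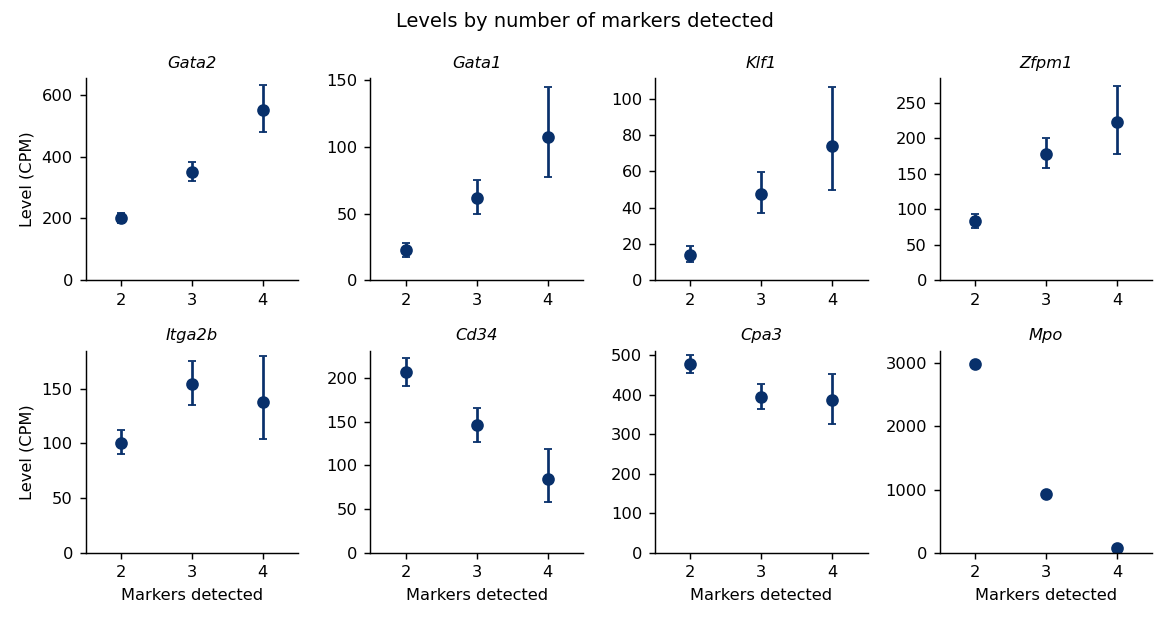
Level in CPM of 8 genes in the marker-pair cells with 2, 3 and 4 markers detected (206, 118 and 35 cells), with 95% Poisson intervals as bars. Gata2, Gata1 and Klf1 are higher with each added marker, and Mpo is lowest with 4 markers, at 79.2 CPM.

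The cells were a mixture when read by genes that the rule did not use. The summed level of the 5 neutrophil granule genes Mpo, Elane, Prtn3, Ctsg and Ms4a3 ran from 0 to 67888 CPM over the members, with a median of 778 CPM. It was 1000 CPM or more in 161 members (44.8%, 39.6 to 50.2), with 95 members between 500 and 2000 CPM, so that this limit does not separate 2 clear groups. The same sum had a median of 145 CPM in Car1-high cells and 246 CPM in Pf4-high cells, 2 of the comparison groups defined below. In stem-gene cells, the shallowest comparison group, its median was 821 CPM and its upper quartile 1236 CPM. Ms4a2, the beta chain of the IgE receptor of basophils and mast cells, had a UMI in 100 members (27.9%, 23.3 to 32.8), against 0.702% of stem-gene cells and 8.47% of Cebpe-positive cells. Both features were present in 60 members and neither in 158 (44.0%, 38.8 to 49.3).

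With 2 markers 60.7% of members reached 1000 CPM of granule genes, with 3 markers 30.5%, and with 4 markers none of 35. Gata1 was detected in 25.2%, 49.2% and 60.0% of these cells. Over the 359 cells the granule level and the summed erythroid list had a Spearman rho of -0.69 (Pearson r -0.43), and the granule level and 6 basophil and mast cell genes (Cpa3 and Ms4a2 among them) had a rho of 0.48 (r 0.05). The erythroid and megakaryocyte lists had a rho of 0.49 (r 0.36). These are descriptions, since the cells share 1 library, and depth and the shared denominator enter every value.

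**Figure D3:**
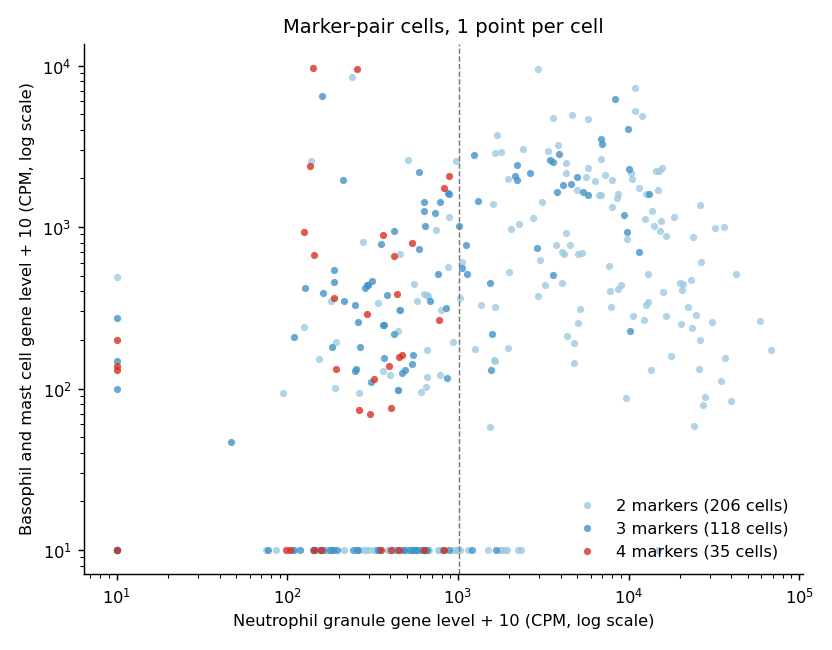
Each of the 359 marker-pair cells by its summed level of 5 neutrophil granule genes and of 6 basophil and mast cell genes, both in CPM with 10 added on log axes, coloured by the number of markers. The dashed line marks 1000 CPM of granule genes, and none of the 35 cells with 4 markers lies to its right.

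The 3 subsets differed in the genes of the erythroid-megakaryocytic branch. In the 158 members with neither feature Gata1 stood at 59.8 CPM, Zfpm1 at 235 CPM and Car2 (an early erythroid carbonic anhydrase) at 829 CPM. In the 100 members with Ms4a2, Gata1 stood at 52.8 CPM and Gata2 at 413 CPM, whereas Zfpm1 was at 92.5 CPM and Car2 at 235 CPM. In the 101 members with the granule genes and no Ms4a2, Gata1 stood at 14.1 CPM, Klf1 at 4.53 CPM and Itga2b at 52.4 CPM, and Cd34 at 274 CPM. The intervals of Gata1 overlapped between the first 2 subsets, and Zfpm1 and Car2 were highest in the first. Median depth was 10081.5, 13825.5 and 18501 UMIs.

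Among the members the markers differed in the cells they took. Cells with St8sia6 had Ms4a2 in 51.1%, and cells with F2r had it in 17.7%. Granule genes reached 1000 CPM in 17.1% of the F2r cells, 34.0% of the St8sia6 cells, 44.5% of the Apoe cells and 47.8% of the Slc22a3 cells. The St8sia6 cells had the highest level of Fcer1a, the alpha chain of the IgE receptor (239 CPM). Cells with several markers stand in several of these counts.

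A clustering of all filtered cells without the 12 genes of the rule placed the members in 16 of 19 clusters. The cluster with the most members held 88 of them (24.5%) and had St8sia6, Clec4d, Trib2, Scin, Apoe and F2r as its leading genes. Further members lay in a cluster led by Adgrl4, Tespa1 and Cd34 (75 members), in one led by the basophil protease genes Prss34 and Mcpt8 (56) and in one led by Pf4 and Tuba8 (33). In 3 other clusterings the top 3 clusters held between 44.8% and 53.5% of members, against 61.0% here, and the top cluster held 76 to 87 members. The highest member share of any cluster was 28.3% here. It was 17.6% with another seed at the same resolution, 13.4% at resolution 0.5 and 34.1% at resolution 2. The make-up of the leading cluster thus depends on the settings. Of the 20 nearest cells of a member 29.9% were members on average, with members making up 4.70% of all cells.

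In the first of these clusterings, most cells of the leading cluster carried the markers and were kept out by Car1. Of its 311 cells 295 (94.9%) had 2 or more of the 4 markers, and 175 (56.3%) had 5 or more UMIs of Car1, whereas 28 had Prss34, 32 had Treml1 and 13 had 3 or more UMIs of Pf4. Its members and its remaining cells had similar Gata1 levels, at 88.4 CPM (68.9 to 112) and 108 CPM (95.5 to 121). Klf1 was lower in the members, at 75.8 CPM (57.8 to 97.5) against 126 CPM (113 to 141). Gata2 (486 CPM against 330 CPM) and Itga2b (143 CPM against 76.7 CPM) were higher in the members, and the markers St8sia6 (82.1 CPM and 63.3 CPM) and Slc22a3 (176 CPM and 133 CPM) were present in both. The rule's limit on Car1 separates these members from most of the remaining cells, and its part in these values was not tested.

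For comparison 3 neighbouring groups were defined by the other side of 1 limit each, all with no UMI of Flt3 or Prss34. Car1-high cells (1052, median 30002 UMIs) had 5 or more UMIs of Car1, Pf4-high cells (423, median 14976 UMIs) had 3 or more of Pf4, and stem-gene cells (712, median 8808 UMIs) had at least 2 of Procr, Hlf and Mecom. A gene with 50 or more UMIs in the 2 groups compared was counted as past the fold when its ratio, with 10 CPM added to both levels, was at least 2 or at most 0.5.

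The transcription factors of the branch stood at mixed levels. Gata2, with 0 to 24 UMIs a cell and a median of 3, was detected in 307 members (85.5%). Its level was 271 CPM (257 to 286), against 82.8 CPM in all other cells (ratio 3.28, 3.10 to 3.46) and 39.7 CPM in Car1-high cells, and it was close to that of Pf4-high (252 CPM) and stem-gene cells (246 CPM). Gata1, with 0 to 6 UMIs a cell and a median of 0, was detected in 131 members (36.5%). Its level of 40.3 CPM (35.0 to 46.1) did not differ beyond counting error from that of all other cells (40.7 CPM, ratio 0.990, 0.859 to 1.14), and lay between stem-gene cells (10.1 CPM) and Car1-high cells (119 CPM). Cebpe-positive cells had Gata1 at 2.75 CPM and in 4.92% of cells.

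Klf1 had 0 to 7 UMIs a cell and was detected in 88 members (24.5%). At 28.4 CPM it was lower than in Car1-high cells (297 CPM, ratio 0.0957, 0.0808 to 0.113) and higher than in Pf4-high (12.9 CPM) and stem-gene cells (6.27 CPM). Fli1, at 91.9 CPM, lay between Car1-high (9.35 CPM) and Pf4-high cells (287 CPM). Both Klf1 and the megakaryocytic integrin gene Itga2b were detected in 66 members (18.4%), Itga2b alone in 185, Klf1 alone in 22 and neither in 86. Myb, which sustains progenitor growth, was at 504 CPM and above all 3 neighbours (207 to 335 CPM). Of the 18 transcription factors 10 were past the fold upward and 3 downward against Car1-high cells, where 8.49% of all genes tested were higher and 3.82% lower. Against Pf4-high cells 1 was higher and 4 were lower, beside 1.96% and 1.76% of all genes. Against stem-gene cells 2 were higher and 3 lower, beside 1.06% and 3.37% of all genes. Against all other cells, 2 (Gata2 and Meis1) were higher and 1 (Klf1) was lower, beside 0.623% and 1.02% of all genes.

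**Figure D4:**
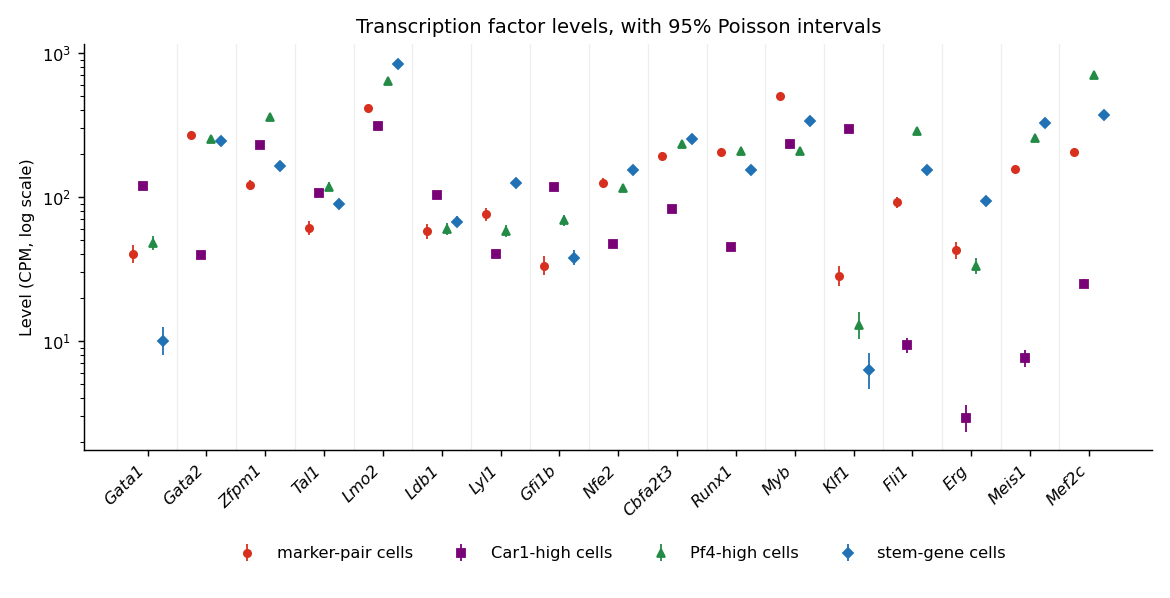
Levels of 17 transcription factors in CPM on a log axis in the marker-pair cells and the 3 neighbouring groups, with 95% Poisson intervals as bars. Gata1 and Klf1 in the marker-pair cells lie between stem-gene and Car1-high cells, and Gata2 lies near Pf4-high and stem-gene cells.

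The surface genes used in sorting this progenitor were checked against its label. Kit, the gate of the sort, was detected in 311 members (86.6%) with a median of 2 UMIs and stood at 175 CPM, above Car1-high (64.7 CPM) and below stem-gene cells (261 CPM). Slamf1 stood at 7.68 CPM, well below stem-gene (46.3 CPM) and Pf4-high cells (28.7 CPM). Eng was at 37.8 CPM, the lowest of the 4 groups. Fcgr3, which marks granulocyte-monocyte progenitors and is low in the labelled cell type, was at 50.3 CPM against 6.82 to 12.3 CPM in the 3 neighbours. In the 158 members without granule genes and Ms4a2 it was at 2.37 CPM and Slamf1 at 18.4 CPM, and in the other 2 subsets Fcgr3 was at 70.5 and 76.9 CPM. Epor, the erythropoietin receptor gene, was at 8.25 CPM, near stem-gene cells (8.75 CPM) and under Pf4-high (17.4 CPM) and Car1-high cells (91.7 CPM).

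Against all other filtered cells, which is the contrast the rule itself used, 84 of 13479 genes (0.623%) were higher and 138 (1.02%) were lower past the fold. These numbers are descriptive. The highest genes after those of the rule were Ighg2c, Ikzf2 (173 CPM against 35.7 CPM), Csrp3 (123 CPM against 27.7 CPM), 4930519L02Rik, Rgs1 and Ctla2a. Ighg2c, an antibody heavy chain gene, rests on 1 cell, which held 1623 of its 1630 UMIs in members and 4562 of the 4639 UMIs of the light chain gene Igkc. Ikzf2, the zinc finger factor Helios, was detected in 243 members and Ctla2a in 322, with no cell holding more than 2.22% of their UMIs. Cpa3, Slc18a2 (a vesicular monoamine transporter) and Ms4a2 followed further down. The lowest genes included Ighm, the globins Hbb-bs, Hba-a1 and Hbb-bt, the antigen presentation gene Cd74, the erythroid membrane genes Cldn13, Rhd and Ermap, and the myeloid genes Irf8, F13a1 and Ly86. Hba-a1 and Hba-a2, and Hbb-bs and Hbb-bt, are near-identical copies whose separate counts are uncertain.

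Mature red cell genes were at low levels in the members. Of the 20 erythroid genes 18 were lower than in all other cells (median log2 ratio -1.82, against 0.02 over all genes tested). Of all genes 1.02% were lower and 0.623% higher there. Against Car1-high cells 19 of 20 were lower (median -3.37), where 3.82% of 10653 genes were lower and 8.49% higher. Slc4a1, the red cell anion exchanger, had 1 UMI in all members (0.192 CPM). It and other genes with few UMIs in the members passed the filter through the comparison cells, which fixes part of these counts. Hbb-bs was at 18.6 CPM against 1305 CPM in Car1-high cells and 12.3 CPM in Cebpe-positive cells. Genes of the early erythroid program were above the Cebpe-positive level, with Car2 at 403 CPM against 45.1 CPM, Blvrb (biliverdin reductase) at 105 CPM against 32.6 CPM, and the water channel gene Aqp1 at 34.4 CPM against 4.09 CPM. Against Pf4-high cells 1 of 15 erythroid genes tested was lower and none was higher, beside 1.76% and 1.96% of all genes. Against stem-gene cells 1 of 16 was higher and 1 was lower, beside 1.06% and 3.37%.

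Megakaryocyte genes were lower than in Pf4-high cells for all 17 genes tested of 20 (median log2 ratio -2.07), where 1.76% of 9981 genes were lower and 1.96% higher. Genes with few UMIs in the members, such as Vwf, passed the filter on low counts through the Pf4-high cells, which fixes part of this count. Vwf, the von Willebrand factor, stood at 8.45 CPM against 220 CPM, Itga2b at 119 CPM against 562 CPM, and Rab27b, a GTPase of granule release, at 23.4 CPM against 226 CPM. Against Car1-high cells 8 of 13 were higher and none was lower, where 8.49% of all genes tested were higher and 3.82% lower. Among the higher ones were Itga2b (6.60 CPM in Car1-high cells) and Plek, a platelet protein kinase C substrate (69.1 CPM against 2.55 CPM). Against stem-gene cells none of 12 was higher and 6 were lower, beside 1.06% and 3.37% of all genes. Mmrn1, a platelet multimerin, stood at 24.4 CPM against 165 CPM.

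Of the 14 stem cell genes other than those of the rule 11 were lower than in stem-gene cells (median log2 ratio -1.53), where 3.37% of 10620 genes were lower and 1.06% higher. Stem-gene cells were chosen by Procr, Hlf and Mecom. Genes with few UMIs in the members, such as Meg3 (2 UMIs) and Fgd5 (5 UMIs), passed the filter through these cells. Both points fix part of this count. Against all other cells 2 of 14 (Angpt1 and Meis1) were higher and none was lower, beside 0.623% and 1.02% of all genes. Mllt3 stood at 26.9 CPM against 177 CPM, Ly6a (Sca-1) at 10.2 CPM against 106 CPM, and Fgd5 at 0.960 CPM against 25.5 CPM. Angpt1 and Txnip, at 206 CPM and 199 CPM, were 2 of the list's genes with high levels in members, and both were at 413 CPM or more in stem-gene cells. Of the genes lower in members than in stem-gene cells the number was 567 in place of 358 when mitochondrial, ribosomal protein and haemoglobin UMIs were left out of the totals, and the number higher was 135 in place of 113.

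**Figure D5:**
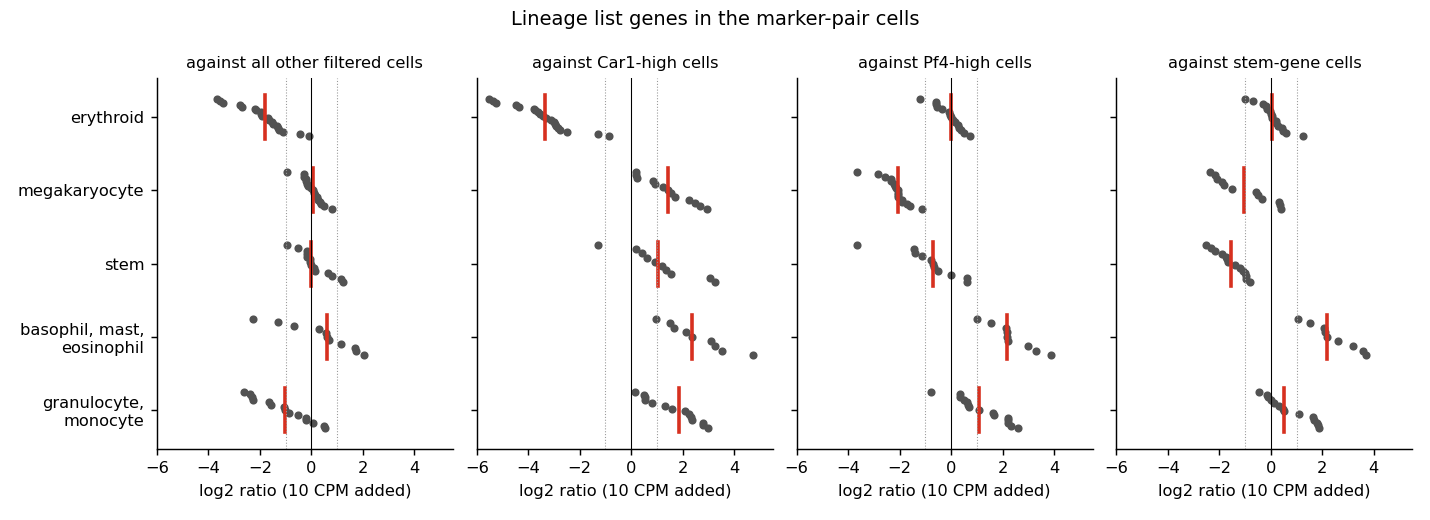
Log2 ratio of each list gene (10 CPM added to both levels) in the marker-pair cells against all other filtered cells and the 3 neighbouring groups, with 1 point per gene with 50 or more UMIs and a red bar at the median. Erythroid genes lie to the left against Car1-high cells (median -3.37) and megakaryocyte genes against Pf4-high cells (median -2.07). Genes with few UMIs in 1 group are plotted where the other group brought them past the filter.

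Several genes of basophils and mast cells were at higher levels than in each neighbour. Several of the 11 genes of this list, such as Gzmb and Epx, had few or no UMIs in the neighbours and passed the filter on low counts through the members alone, so no count over the list is given for these contrasts. Cpa3, with 0 to 74 UMIs a cell and a median of 2, was at 446 CPM against 7.31 CPM, 21.1 CPM and 27.9 CPM, and was detected in 224 members. Ms4a2 was at 130 CPM against 0.914 to 4.06 CPM, and Hdc, the histamine-forming enzyme, at 99.6 CPM against 2.92 to 7.83 CPM. Against all other cells 4 of 11 were higher and 2 were lower, beside 0.623% and 1.02% of all genes. The 2 lower ones were Mcpt8 (75.1 CPM against 403 CPM) and Prg2 (54.5 CPM against 146 CPM), in a comparison group that holds the cells with Prss34 that the rule left out. Eosinophil granule genes rested on few cells, since Epx was detected in 2 members, 1 of which held 52 of its 55 UMIs, Prg3 in 4 and Prg2 in 24, 1 of which held 35.9% of its UMIs. Gzmb, the cytotoxic protease granzyme B, had 182 UMIs in 13 members and none in Pf4-high and stem-gene cells. In the 158 members without Ms4a2 and under 1000 CPM of granule genes Cpa3 stood at 82.3 CPM.

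Of the 15 neutrophil and monocyte genes 8 were lower than in all other cells (median log2 ratio -1.03) and none was higher. Of all genes 1.02% were lower and 0.623% higher. S100a9 (8 UMIs in members) and Csf1r (38 UMIs) passed the filter through the other cells. The lower ones were the monocyte genes Irf8 (37.6 CPM against 286 CPM), Ly6c2 (91.6 CPM against 478 CPM), Csf1r (7.29 CPM against 25.7 CPM), F13a1 and Ly86, and the neutrophil genes Elane (1515 CPM against 3102 CPM), S100a8 (44.9 CPM against 155 CPM) and S100a9 (1.54 CPM against 26.2 CPM). Prtn3, at 1732 CPM against 3206 CPM, was within the fold. Mpo stood at 2158 CPM, ran from 0 to 261 UMIs a cell with a median of 2, and was within the fold of the other cells (2475 CPM). Mpo was higher than in Car1-high (263 CPM), Pf4-high (343 CPM) and stem-gene cells (620 CPM). In Cebpe-positive cells it was at 7274 CPM. Of the 10 lymphoid genes 8 were at 1.34 CPM or less. Ebf1, Rag1, Il7r and Cd3e had no UMI in any member, which allows up to 0.576 CPM. The others were Nkg7, a granule gene of killer cells, at 490 CPM against 319 CPM in all other cells, and Satb1, a chromatin organiser, at 28.2 CPM against 27.8 CPM. Markers of macrophages and of stroma or endothelium were also near 0. Of 10 macrophage genes C1qb, Cd5l and Mrc1 were at 0 and the highest was Vcam1 at 6.14 CPM, and of 6 stromal and endothelial genes only Kdr had UMIs (1.15 CPM).

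The families of the marker genes were mostly at low levels. Of the 5 other ST8SIA enzymes St8sia4 was at 43.4 CPM (35.6 CPM in stem-gene cells, 5.36 CPM in Car1-high cells), and the rest were at 0.576 CPM or less. Of the other thrombin receptors F2rl3 was at 8.25 CPM and F2rl2 at 3.07 CPM against 68.4 CPM in Pf4-high cells, and F2rl1 had no UMI. The G proteins that PAR1 couples to were present, with Gna13 at 54.7 CPM and Gnaq at 41.7 CPM. Slc22a2, another organic cation transporter, had no UMI, whereas Slc22a4 of the same family had 39 UMIs in 29 members and Slc22a5 had 7 in 6. Apoc1, the neighbour of Apoe in the lipoprotein gene cluster, was at 4.41 CPM, while the cholesterol exporter gene Abcg1 was at 37.6 CPM (3.25 CPM in Car1-high cells).

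Cell cycle genes lay between those of stem-gene and Car1-high cells. The summed level of 12 S phase genes had a median of 1066 CPM over the members, 460 CPM over stem-gene cells, 1357 CPM over Pf4-high cells and 2448 CPM over Car1-high cells. For 12 G2/M genes the medians were 401 CPM, 139 CPM, 444 CPM and 2319 CPM. None of these 24 genes was past the fold against Pf4-high or stem-gene cells, where 1.06% to 3.37% of all genes were past it in each direction. Against Car1-high cells 4 S phase and 5 G2/M genes were lower and none was higher, beside 3.82% and 8.49% of all genes. Cdk6, a G1 kinase, was at 698 CPM, above stem-gene (349 CPM), Pf4-high (568 CPM) and Car1-high cells (269 CPM), and Myc at 120 CPM was above all 3 (67.5 to 80.5 CPM). The cell cycle state of the 3 groups was also tied to depth, with stem-gene cells the shallowest and Car1-high cells the deepest.

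Brd9, the floxed gene, was at 25.1 CPM in the members, 30.5 CPM in all other cells, and 23.0 to 30.0 CPM in the 3 neighbours. None of 8 SWI/SNF genes was past the fold in any of the 4 comparisons. Between 0.623% and 8.49% of all genes were past it in each direction, and at those shares few of any 8 genes would be called.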

How the data were processed

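The deposited UMI counts came from a 10x Chromium library, for which the authors ran Cell Ranger 6.0.2 on mm10. They are whole counts per gene and barcode, not normalized, in a matrix of 8817 barcodes called as cells. The labels describe a bulk RNA kit, whereas the matrix header and the study's methods describe the 10x library.

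The study's cell filter (between 1000 and 50000 UMIs, between 1000 and 6500 genes, and a mitochondrial share under 7%) kept 7645 of 8817 barcodes. Scrublet in scanpy 1.11.5 called doublets at an expected rate of 6%, and the calls were kept. Clusters came from log-normalised counts, 3000 variable genes without the rule genes, 50 components and leidenalg 0.10.2 at resolution 1. Intervals were computed with scipy 1.17.1 at 95%. Genes per group were compared as summed counts, and the functions were tested on simulated data. Thinning to 5000 UMIs was at random without replacement.

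The members, the 21 gene lists and the comparisons were chosen with earlier results of these data known. Named genes are the 220 list genes and, among genes with 50 CPM or more in the higher group, the 12 highest and 12 lowest against all other cells and the 6 highest and 6 lowest against each neighbour. Leading genes of clusters are named besides. All 220 list genes were found in GENCODE M21 by identifier, and 43 (Itga2b, Zfpm1, Cpa3 and Mcpt8 for example) share a strand and bases with a further gene, so that their reads could be split. Alternatives were doublet removal, a stricter cell filter, 3 other member rules, 2 other scalings, thinning and a filter of 200 UMIs per gene. The study's Brd9-deleted cells are not analysed here, and single values of some list genes are not reported, although the counts over the lists include them.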

Additional observations from a re-analysis of the deposited data

Results flagged for a closer look

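The cell filter removed 1172 barcodes, and 11 of them met the marker rule. All 11 had a mitochondrial share of 7% or more. They were flagged because they carry the marker signal outside the cells that were compared, and their part in the results was not tested.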

How the results depend on the processing

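Of 151 shares and counts recomputed under 11 alternatives, 128 stayed within the interval of the share or within 1.5 times the count. The member share of 4.70% moved to 2.0% with 3 of 4 markers required, 2.05% with Apoe not counted, 1.44% with no UMI of Car1 or Pf4, and 5.27% with the rule applied to cells thinned to 5000 UMIs. Against all other cells the 84 higher genes became 196, 186 and 139 under the first, second and last of these and 52 with the mean of each cell's CPM, and the 138 lower genes became 220 with 3 markers and 214 without Apoe. Under both of the latter 13 in place of 8 neutrophil and monocyte genes were lower. Leaving mitochondrial, ribosomal protein and haemoglobin UMIs out of the totals gave 567 in place of 358 genes lower than in stem-gene cells. The cause was not tested, apart from the smaller numbers of members that follow from the stricter rules.

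An alternative chosen after seeing the data kept only the 158 members (2.07% of cells) without Ms4a2 and under 1000 CPM of granule genes, which fixes the direction of those genes. Then 209 genes were higher and 272 lower than in all other cells, 95 and 105 against Pf4-high cells, and 57 and 231 against stem-gene cells. Of the basophil, mast cell and eosinophil list 0 in place of 4 genes were higher than in all other cells, 14 neutrophil and monocyte genes were lower, and 6 in place of 11 stem genes were lower than in stem-gene cells. The log2 ratio against all other cells (10 CPM added) reversed for Cpa3, from 1.74 to -0.57, and for Ms4a2, from 1.68 to -2.13. Leaving out the 1 barcode with the antibody genes moved no share or count by this measure. No paired analysis was possible because there is 1 library. Depth limits what 1 library can give: intervals cover counting error and not differences between mice, sorts or libraries, and a gene without a UMI in the members may stand at up to 0.576 CPM.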

Other observations

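Interferon-induced genes, of interest because the mice had received pIpC 8 weeks earlier, were compared in the same way. None of the 9 genes tested of 10 was past the fold against all other cells, where 0.623% of all genes were higher and 1.02% lower. Against Car1-high cells 1 of 8 was higher and none lower, beside 8.49% and 3.82% of all genes. Against Pf4-high cells 1 of 7 was lower and none higher, beside 1.76% and 1.96%. Against stem-gene cells 3 of 9 were lower and none was higher, beside 3.37% and 1.06%. The median log2 ratio there was -0.75, against -0.08 over all genes tested. Ifitm3 stood at 319 CPM against 1099 CPM, Rtp4 at 7.10 CPM against 46.7 CPM and Oasl2 at 5.95 CPM against 29.5 CPM. Rtp4 (37 UMIs in members) and Oasl2 (31 UMIs) passed the filter through the stem-gene cells, which fixes part of this count. Ifitm3 was also lower than in Pf4-high cells (843 CPM) and higher than in Car1-high cells (103 CPM).

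Nkg7, a granule protein gene of cytotoxic lymphocytes, stood at 490 CPM in members, against 125 CPM in stem-gene, 285 CPM in Pf4-high and 56.4 CPM in Car1-high cells. Its level was similar with 2, 3 and 4 markers (489 CPM, 487 CPM and 514 CPM), in contrast to Mpo. Cebpe-positive cells had 1209 CPM of it.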
